A study of Mus musculus with 42 samples.

Results

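Nmrk1 and 9 other genes of nicotinamide adenine dinucleotide (NAD) synthesis and use were followed across the livers of 42 mice. They were taken by symbol from the 6 deposited tables, and all 10 (Nmrk1, Nampt, Nadsyn1, Nmnat1, Nmnat3, Qprt, Nnmt, Nadk, Sirt1 and Sirt3) were present in every table, among 19758 genes listed in at least 1 of them. Nmrk1 was selected on these data, chosen by its having the smallest adjusted p between RvE1-treated and vehicle-treated obese WT mice, and the other 9 were added because they belong to the same pathway. Every value of that contrast is therefore given as a description without a test, and so is Nmrk1 in any other contrast that uses the WT obese mice.

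All mice were male C57BL/6J, either ChemR23 KO (made with CRISPR/Cas9, without the RvE1 receptor ChemR23 that Cmklr1 encodes) or WT littermates, with 7 mice and 1 library per mouse in each of 6 groups. WT lean and KO lean mice were fed a diet with 10% of energy from fat (lard), and WT obese and KO obese mice one with 60%, for 15 weeks from 6 weeks of age. These 4 groups received vehicle, and WT obese+RvE1 and KO obese+RvE1 mice received 300 ng of RvE1, which is derived from the fatty acid eicosapentaenoic acid, on 4 consecutive days. Whole liver was taken after a fast on day 5.

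NAD carries electrons in fuel oxidation and is also broken down by enzymes such as sirtuins, PARPs and CD38, so that cells must keep remaking it. The liver makes NAD from tryptophan, from nicotinic acid, and by salvage of nicotinamide (through NAMPT) or of nicotinamide riboside (through the kinase NMRK1). The routes end at the NMNAT enzymes, which add the adenylyl group, NADSYN1 amidates the acid form, NADK phosphorylates NAD to NADP, and NNMT methylates nicotinamide and so removes it from salvage.

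Values below are normalized counts, that is reads per gene divided by a library size factor set within each table, so groups were compared only within a table. Reads on listed genes ran from 15992525 to 43841120 per mouse, with a median of 24298289. Cmklr1 averaged 12.7 ± 4.69 (SD, n = 7) in livers of KO lean mice against 64.3 ± 25.1 (SD, n = 7) in those of WT lean mice. The 6 hepatocyte markers (Alb, Ttr, Apoa1, Cps1, Ass1 and Tat) were present in every table, and 0 of 6 were called or had an unadjusted p under 0.05 in any comparison by limma. A gene was called at a Benjamini-Hochberg adjusted p under 0.1 from limma on log2(normalized count + 1), over all genes with a mean of at least 5. All 10 genes passed that minimum in every table. Fold changes are on this log2 scale, which slightly understates those of low genes. In bulk liver, fewer cells of a type and less RNA per cell cannot be told apart.

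The stretch of 250 bases before a RefSeq start is shown for Nmrk1 and Nampt, the salvage genes that moved with diet, and for Sirt1, the member with most copies of the E-box bound by circadian clock proteins. The sequences are those of RefSeq on GRCm38.p6 (the mm10 assembly), read 5′ to 3′ on the strand of the gene. Capitals mark CACGTG (the E-box) and AGGTCA (a core bound by nuclear receptors), searched on both strands.
Nmrk1, chr19:18631766-18632015, plus strand: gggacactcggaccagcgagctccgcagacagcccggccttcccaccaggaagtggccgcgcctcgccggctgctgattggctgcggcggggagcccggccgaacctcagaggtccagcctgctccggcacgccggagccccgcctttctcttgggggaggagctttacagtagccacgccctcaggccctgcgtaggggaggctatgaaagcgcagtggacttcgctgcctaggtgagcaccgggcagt
Nampt, chr12:32820085-32820334, plus strand: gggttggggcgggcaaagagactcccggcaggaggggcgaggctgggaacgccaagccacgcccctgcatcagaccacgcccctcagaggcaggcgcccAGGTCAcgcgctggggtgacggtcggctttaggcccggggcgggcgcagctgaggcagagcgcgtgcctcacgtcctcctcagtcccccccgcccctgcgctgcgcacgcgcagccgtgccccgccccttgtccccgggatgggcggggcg
Sirt1, chr10:63339036-63339285, minus strand: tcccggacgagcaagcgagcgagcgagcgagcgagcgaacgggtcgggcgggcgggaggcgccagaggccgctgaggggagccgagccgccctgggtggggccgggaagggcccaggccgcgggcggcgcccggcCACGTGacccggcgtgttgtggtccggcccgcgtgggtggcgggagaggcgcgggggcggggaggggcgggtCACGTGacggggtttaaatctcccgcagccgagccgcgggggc
The Nmrk1 window held neither motif, nor TTATGNAA (the D-box). The Nampt window held AGGTCA 1 time, 151 bases before the start, and the Sirt1 window held CACGTG 2 times, 115 and 43 bases before it. Of 9 members matched, with 12 starts, the only other match to these 3 motifs was a CACGTG 40 bases before the second start of Nadk. Among 32851 mouse promoter windows of the same length, 6.02% held CACGTG, 14.02% AGGTCA and 3.07% TTATGNAA. A match is a run of letters and no evidence of binding.

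By GENCODE M21 on GRCm38, Nmrk1 lies at chr19:18631950-18652428, Nampt at chr12:32819545-32853349, Nmnat3 at chr9:98287435-98420438, Nnmt at chr9:48591877-48605153 and Sirt3 at chr7:140863666-140882309. These gene bounds differ from the RefSeq starts used above. The windows shown for Nampt and Sirt1 lie within the bounds of their genes, and that for Nmrk1 does so in part. A long noncoding gene on the same strand, Gdap10, overlaps 5033 bases of Nampt, and a processed pseudogene lies over 577 bases of Nmnat3, so reads of these 2 members carry some uncertainty. Psmd13 overlaps Sirt3 by 342 bases on the opposite strand, and the strand setting of the counting is not given in the sources used here.

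The 10 transcripts differed widely in level. Per kilobase of exon in WT lean mice, Nnmt led at 3135 ± 1477 normalized counts (SD, n = 7), followed by Nadk at 1493 ± 236 and Qprt, which makes the NAD precursor of the tryptophan route, at 1285 ± 112. Nampt was at 340.5 ± 139 per kilobase and Sirt3, a mitochondrial deacylase, at 309 ± 43.2. Nmrk1 stood sixth at 153 ± 38.1, ahead of Sirt1, a nuclear deacylase, at 93.3 ± 13.6. Nadsyn1, Nmnat1 and the mitochondrial Nmnat3 closed the order at 70.3 ± 14.0, 65.1 ± 8.47 and 17.1 ± 6.48. The ranges of Nadk and Qprt overlapped, as did those of Nampt with Sirt3, of Nmrk1 with Sirt1, of Sirt1 with Nadsyn1 and of Nadsyn1 with Nmnat1. The ranges did not overlap between Nnmt and Nadk, between Qprt and Nampt, between Sirt3 and Nmrk1, or between Nmnat1 and Nmnat3.

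Nmrk1 rose with the high fat diet in KO livers and also stood higher in obese than in lean WT livers. In WT mice it ranged from 359 to 718 with a median of 596 normalized counts when lean, and from 893 to 1346 with a median of 982 when obese. The WT groups did not overlap, with each of the 7 obese mice higher than any lean one. The log2 difference was 0.91 (SE 0.16), given without a test. The WT obese group lay fully above the WT lean group for 0.799% of all genes tested.

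In KO mice, where the diet contrast shares no mouse with the one that chose Nmrk1, the gene was tested and rose. Its counts ranged from 589.7 to 914 with a median of 663 in KO lean mice, and from 863 to 1457 with a median of 1157 in KO obese mice, of which 6 of 7 lay above every KO lean mouse. The rise was 0.74 on the log2 scale (SE 0.14, n = 7 per group, limma adjusted p = 0.00592), and the call held when any 1 mouse was left out. The rise in KO minus that in WT mice was -0.18 on the log2 scale (SE 0.22), again without a test.

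**Figure D1:**
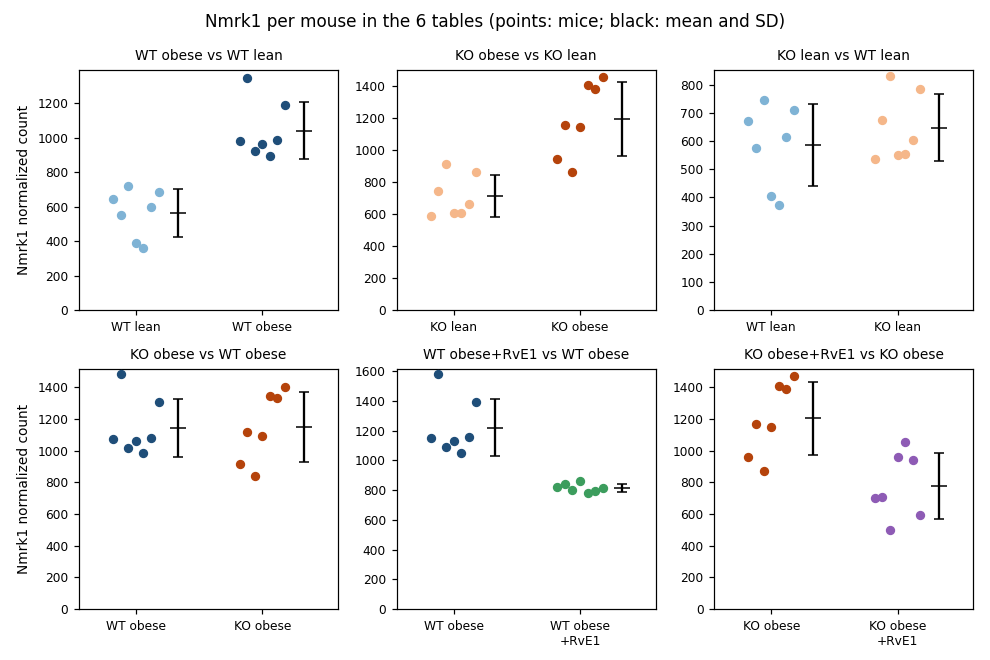
Nmrk1 normalized count per mouse (vertical axis) in each of the 6 tables, with 7 mice per group as points and the mean and SD in black. The WT obese+RvE1 mice sit between 782 and 859.9, below all WT obese mice of that table, while KO obese+RvE1 mice spread from 499 to 1054 and overlap the KO obese mice.

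Nampt, the rate-limiting enzyme of nicotinamide salvage, rose in the livers of KO obese mice. It ranged from 1170.4 to 3459 with a median of 1407 in KO lean mice and from 2524 to 4371 with a median of 3249.8 in KO obese mice. The groups overlapped, as only 2 of 7 obese mice exceeded the top lean mouse. Limma gave a log2 fold change of 0.87 (SE 0.23) with an adjusted p of 0.0236. In WT mice Nampt ranged from 883 to 2701 (median 1703) in lean and from 2033 to 3075 (median 2589.9) in obese livers. That difference of 0.67 (SE 0.23) on the log2 scale did not pass (limma adjusted p = 0.119), although it did at equal read totals and without the WT lean mouse 21R or 26L. The diet effect on Nampt differed by 0.20 (SE 0.34) between genotypes, which did not pass the test of the difference (adjusted p = 0.8).

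Nampt is also known as a target of the circadian clock. In the KO obese and KO lean comparison, where it was called, limma called 5 of 14 core clock genes tested, 4 higher (Hlf, Per2, Per3 and Cry2) and 1 lower (Npas2), against 24.1% of all genes. Per2, a repressor of the clock loop, rose by 1.31 (SE 0.30, adjusted p = 0.0133), while Nr1d1 was at -0.72 (SE 0.37, adjusted p = 0.187), Arntl at -0.14 (SE 0.37) and Dbp at -0.08 (SE 0.30). In WT mice, too, 5 of 14 were called, 3 higher and 2 lower, against 6.27% of all genes. With the number that opens a mouse's identifier as a random block, 1 higher (Per3) and 1 lower (Clock) were called in WT mice. There 279 of all 14012 genes were called. In KO mice the 4 higher genes were still called with the block, and Npas2 was not (limma adjusted p = 0.135). The part of sampling time in these values was not tested, as no time of day per mouse was used.

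Within groups, Nampt followed the number that opens a mouse's identifier, whose meaning the labels do not give. WT lean mice with number 8 had 883 and 1002, and those with number 21 had 2261 and 2701. KO lean mice with number 9 or 14 lay between 1170.4 and 1407, and the 3 with number 20 between 2443 and 3459. Over all 42 mice, 83.4% of the within-group variation of log2 Nampt and 83.0% of that of Nadk lay between identifier numbers, against 33.3% if it were spread evenly over degrees of freedom. The share was 60.5% for Nmrk1, 36.3% for Nnmt and 31.4% for Sirt3. Among the groups compared only number 23 was shared, by 1 KO obese mouse, at 4219 for Nampt and 1150.4 for Nmrk1, and 2 KO obese+RvE1 mice, at 1946 and 3887 for Nampt and 591 and 939 for Nmrk1, and 1 mouse against 2 allows no test. With the number as a random block, Nmrk1 and Nampt were still called between KO obese and KO lean mice.

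**Figure D2:**
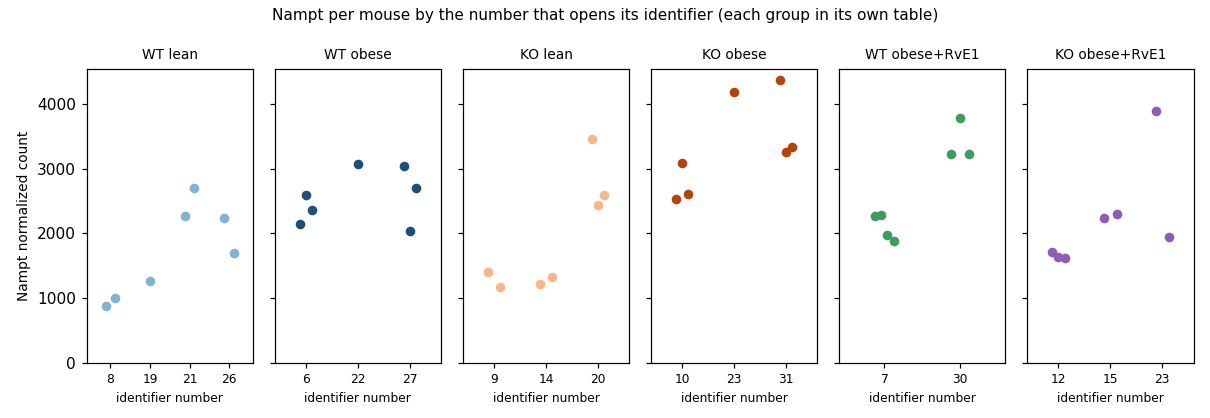
Nampt normalized count per mouse (vertical axis) against the number that opens its identifier (horizontal axis), with a panel for each group in its own table. KO lean mice with number 20 lie at 2443 or above, and those with numbers 9 and 14 at 1407 or below.

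Among the enzymes that complete NAD synthesis, Nmnat3 rose with diet in WT mice. It ranged from 51.4 to 131 with a median of 74.5 normalized counts in WT lean mice and from 123 to 255 with a median of 199 in WT obese mice, and 6 of 7 obese mice lay above every lean mouse. The rise was 1.21 on the log2 scale (SE 0.23, limma adjusted p = 0.00817), and Nmnat3 was called under every alternative and when any 1 mouse was left out. It was the only member called of the 9 tested in this comparison, in which 6.27% of all genes were called. The median log2 fold change of the 9 was 0.06, and that of all genes 0.0030. For the difference of the diet effects between genotypes limma called 0 of the 9 and 0.0071% of all genes, with 3 members and 2561 genes at an unadjusted p under 0.05, and edgeR called 0 and DESeq2 1 of the members.

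In KO mice Nmnat3 ranged from 83.1 to 186 (median 139.7) when lean and from 109 to 271 (median 198) when obese. The difference of 0.38 (SE 0.22) did not pass (adjusted p = 0.253). The diet effect was lower by 0.83 on the log2 scale (SE 0.34) in KO than in WT mice, with a limma adjusted p of 0.194 for the difference. This became 0.0725 without the KO lean mouse 20R, where limma called 1840 of all genes, against 1 with all mice. Nmnat1, the nuclear enzyme, differed by 0.06 (SE 0.14) with diet in WT and by -0.05 (SE 0.15) in KO mice. Nadsyn1 differed by 0.04 (SE 0.13) and 0.03 (SE 0.10), and Qprt by 0.04 (SE 0.11) and -0.21 (SE 0.11), none of them called.

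Nnmt, the methyltransferase that clears nicotinamide, fell in KO obese relative to KO lean livers and was higher in KO lean than in WT lean livers. Both comparisons use the same 7 KO lean mice, so they are not independent. In the table of lean mice Nnmt ranged from 3117 to 9016 with a median of 3441 in WT lean and from 5949 to 14566 with a median of 8944 in KO lean mice. The groups overlapped, and 2 of 7 KO mice exceeded the top WT mouse. Limma gave a log2 fold change of 0.94 (SE 0.27) with an adjusted p of 0.0527. From KO lean mice, at 6556 to 16063 (median 9817), to KO obese mice, at 3237 to 11303 (median 5304), it fell by 0.81 on the log2 scale (SE 0.30, limma adjusted p = 0.0732), with 4 of 7 obese mice below the lowest lean mouse. In WT mice the diet difference was 0.29 (SE 0.27, adjusted p = 0.624). The diet effect differed by -1.10 (SE 0.43) between genotypes, which did not pass (adjusted p = 0.179).

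Sirt3 also rose in KO lean relative to WT lean livers. It ranged from 1565 to 2267 (median 1839) in WT lean and from 1862 to 5020.2 (median 2993) in KO lean mice, of which 5 of 7 exceeded every WT lean mouse. This was a log2 fold change of 0.63 (SE 0.20) at an adjusted p of 0.0619. In KO obese mice it lay between 2102 and 2859, all within the KO lean range of 2044 to 5536, and the difference of -0.42 (SE 0.19) did not pass limma (adjusted p = 0.147), although edgeR and DESeq2 called it. The difference between the diet effects of the genotypes was -0.66 (SE 0.24, limma adjusted p = 0.159). It was -0.77 and passed without the KO lean mouse 20R (limma adjusted p = 0.0375). Leaving out that mouse raised the calls among all genes from 1 to 1840.

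Nnmt and Sirt3 were the 2 of 10 members called between KO lean and WT lean mice, where 16.3% of all genes were called. The median log2 fold change of the 10 was 0.16 and that of all genes -0.00042. Between KO obese and KO lean mice 3 of 10 members were called (Nmrk1, Nampt and Nnmt), where 24.1% of all genes were. The 10 had a median of -0.010 there and all genes -0.0021. Scaling to equal read totals moved the median of all genes to 0.14 between KO obese and KO lean mice and to -0.12 between KO lean and WT lean mice. It turned the split of all calls from 1704 higher and 1718 lower into 2555 and 628 in the former, and from 1042 and 1081 into 392 and 1753 in the latter. Relative to WT lean mice, the KO lean call of Nnmt held under this scaling and that of Sirt3 did not.

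Neither call between KO lean and WT lean mice was stable. When the identifier number entered as a random block, 0 of 10 members were called there, as at an adjusted p under 0.05, and the log2 fold changes under the block were 0.91 for Nnmt and 0.61 for Sirt3. Nnmt lost the call without any 1 of the KO lean mice 20L and 9L or the WT lean mice 21L and 26R. For Sirt3 it was lost without the KO lean mouse 14RL, 20-2L, 20L or 9L or the WT lean mouse 21L, 26R or 8R. Calls among all genes also fell in these fits, from 2123 to between 572 and 1643. The log2 fold changes there were 0.82 to 0.85 for Nnmt and 0.50 to 0.62 for Sirt3. The fall of Nnmt in KO obese mice lost its call under the block, under edgeR, after correction for length and GC content, and without any 1 of 7 mice. Without 1 of those mice calls among all genes were 2219 to 3156, against 3422 with all mice.

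Markers of Kupffer cells, the resident macrophages of the liver, moved in the same comparisons and directions. All 5 that were listed (Clec4f, Vsig4, Cd5l, Marco and Timd4) were called higher in KO lean than in WT lean mice, with a median log2 fold change of 0.98, and their summed level ran from 5624 to 12830 in KO lean against 2320 to 5490 in WT lean mice. Between KO obese and KO lean mice 4 of 5 were called lower, with a median of -0.92. With the identifier number as random block 0 of 5 were called between KO lean and WT lean mice (limma adjusted p from 0.138 to 0.160), while the 4 between KO obese and KO lean mice were still called. Of 5 sinusoidal endothelial markers 2 were called lower between KO obese and KO lean mice (Clec4g and Kdr), and 0 with the block. Between WT obese and WT lean mice limma called 0 of 5 Kupffer markers, and 0 had an unadjusted p under 0.05. Their part in the Nnmt and Sirt3 differences was not tested.

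**Figure D3:**
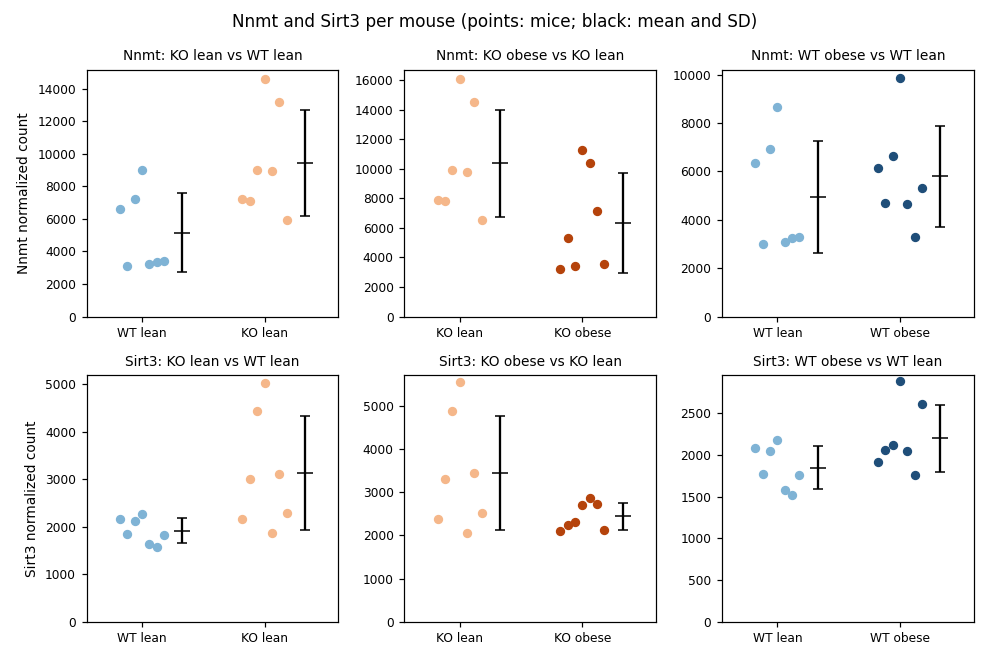
Nnmt (upper row) and Sirt3 (lower row) normalized count per mouse, with 7 mice per group as points and the mean and SD in black, for KO lean vs WT lean, KO obese vs KO lean and WT obese vs WT lean. KO lean mice spread up to 14566 for Nnmt and 5020.2 for Sirt3 in the table of lean mice, and each group overlaps its comparator.

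Sirt1 and Nadk were not called in any comparison by the reported limma test. Sirt1 ranged from 436 to 646 (median 521) in WT lean and from 314 to 559 (median 371) in KO lean mice, of which 5 of 7 lay below every WT lean mouse. The log2 difference of -0.36 (SE 0.14) missed the threshold narrowly (limma adjusted p = 0.102) and passed under TMM, equal read totals, the length and GC correction and DESeq2. With diet it differed by -0.09 (SE 0.13) in WT mice and by 0.29 (SE 0.17) in KO mice, the latter called at equal read totals (0.44, SE 0.15). Nadk differed by -0.33 (SE 0.13, adjusted p = 0.203) with diet in WT mice and by -0.29 (SE 0.15, adjusted p = 0.198) in KO mice.

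Between WT obese and KO obese mice no member was called. Nmrk1 ranged from 988 to 1486 (median 1077) in WT obese and from 837 to 1402 (median 1116) in KO obese mice, a log2 difference of -0.01 (SE 0.13) that is given without a test. Of the 9 members tested, limma called 0, against 0.0141% of all genes. At an unadjusted p under 0.05 there were also 0, and edgeR and DESeq2 called 0. The largest differences of those tested were -0.21 (SE 0.22) for Nmnat3 and 0.18 (SE 0.14) for Nampt.

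After RvE1, Nmrk1 was lower in the livers of obese WT mice. It ranged from 1054 to 1579 with a median of 1151 in WT obese mice and from 782 to 859.9 with a median of 813 in WT obese+RvE1 mice. All 7 treated mice lay below the lowest vehicle mouse, as their groups did for 0.0611% of all genes. The mean fell from 1222 ± 192 to 816 ± 26.7 (SD, n = 7), and the log2 difference was -0.57 (SE 0.09). It stayed between -0.60 and -0.50 when any 1 mouse was left out. The treated mice were also close to each other, with a coefficient of variation of 3.28% against 15.7% with vehicle. These values chose the gene and carry no test. They share the WT obese mice with the diet comparison, so the higher level with diet and the lower level with RvE1 are not independent.

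The other 9 members differed less in WT mice given RvE1. Their log2 differences ran from -0.22 (SE 0.13) for Sirt1 and -0.21 (SE 0.16) for Nampt to 0.11 for Nmnat1, Nnmt and Nadk (SE 0.15, 0.24 and 0.15), and the groups overlapped for all 9. Nampt in treated mice fell into separate ranges by identifier number, from 1888 to 2287 in the 4 mice with number 7 and from 3219 to 3784 in the 3 with number 30, whereas Nmrk1 spanned 782 to 859.9 in the former and 799.6 to 838 in the latter. In this comparison limma called 0 of 13085 genes, with 795 at an unadjusted p under 0.05. Among all genes edgeR called 1 and DESeq2 25. This contrast chose Nmrk1, so whether it was among them would be no test of it and is not given.

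In KO obese mice, which lack the receptor, RvE1 was followed by a difference in Nmrk1 of like size that did not pass the test. Nmrk1 ranged from 873 to 1469.8 (median 1169) in KO obese and from 499 to 1054 (median 705) in KO obese+RvE1 mice. The groups overlapped, with 4 of 7 treated mice below the lowest vehicle mouse. The log2 difference was -0.65 (SE 0.17, limma unadjusted p = 0.00175, adjusted p = 0.557), and the adjusted p lay between 0.153 and 0.862 over the fits that left out 1 mouse. The change with RvE1 in KO minus that in WT mice was -0.08 on the log2 scale (SE 0.20), given as a description.

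Nampt in the same KO mice ranged from 2572 to 4388 (median 3280.1) with vehicle and from 1612 to 3887 (median 1946) with RvE1. Of the treated mice 6 of 7 lay below every vehicle mouse, and 23-2L, at 3887, lay well above the others. The log2 difference of -0.66 (SE 0.19, unadjusted p = 0.0027) did not pass limma (adjusted p = 0.557). Nmnat3 ranged from 110.2 to 274 (median 202) with vehicle and from 232 to 314 (median 284) with RvE1, a difference of 0.52 (SE 0.19) that did not pass either (adjusted p = 0.557). Nmrk1, Nampt and Nmnat3 were the 3 members at an unadjusted p under 0.05, of 1179 genes at that level among 14207 tested. Limma called 0 of 10 members and 0% of all genes, and edgeR and DESeq2 also called 0 of 10. Of 13 core clock genes tested in this comparison limma called 0, with 3 at an unadjusted p under 0.05. The KO diet comparison uses the same KO obese vehicle mice, so opposite directions with diet and with RvE1 in KO mice are not independent.

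**Figure D4:**
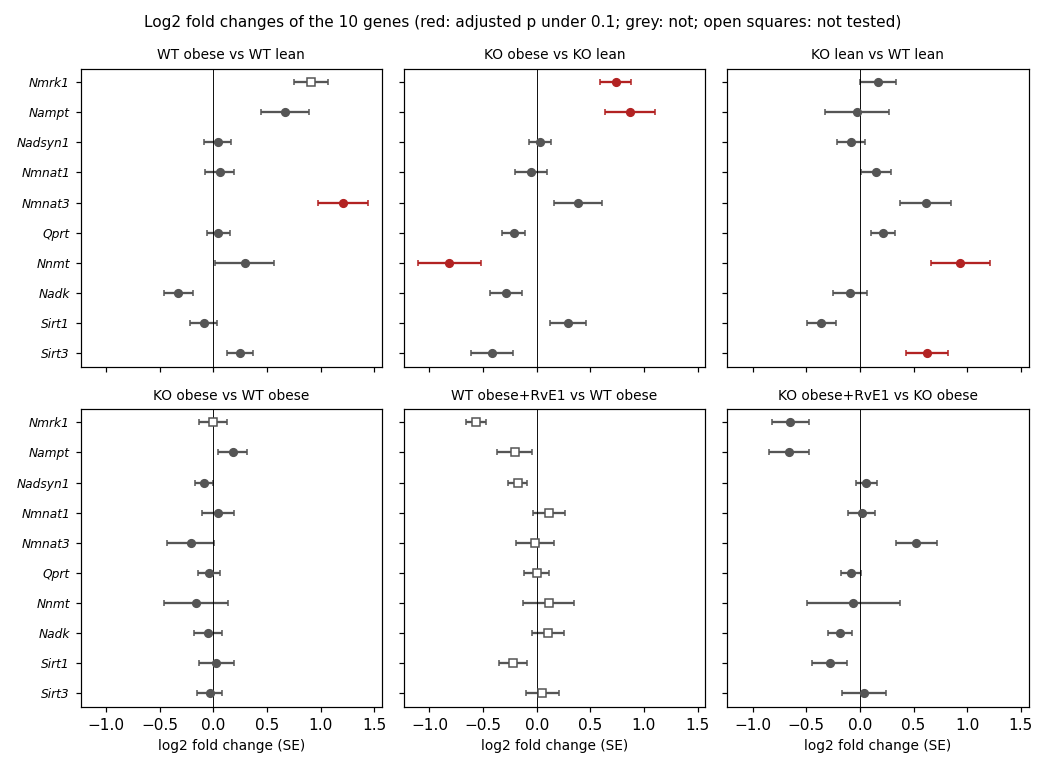
Log2 fold change (horizontal axis, with SE) of the 10 genes in the 6 comparisons, with red for an adjusted p under 0.1 and open squares for values given without a test. Nmrk1 and Nampt lie right of 0 in both diet comparisons, and both lie left of 0 in both RvE1 comparisons. With RvE1 the WT values carry no test, and limma called 0 of 10 members in KO mice. Diet and RvE1 comparisons of a genotype share their obese vehicle mice.

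The wider pathway was described with 35 further genes of NAD synthesis and use, of which 33 were listed. Between WT obese and WT lean mice 4 of 31 tested rose and 1 fell, where 6.27% of all genes were called. The median log2 fold change of the 31 was 0.18. Ido2, an enzyme of tryptophan breakdown, rose by 0.95 (SE 0.13, adjusted p = 0.00126), with all 7 obese mice at 2087 or more and all lean mice at 1693 or less. Aox1 and Aox3, oxidases that act on methylated nicotinamide, rose by 1.16 (SE 0.19) and 0.80 (SE 0.21), and Nt5e, an ectonucleotidase, by 0.61 (SE 0.16). With the identifier number as random block Nt5e was no longer called (limma adjusted p = 0.142). Pnp, a phosphorylase that can split nicotinamide riboside, fell by 0.56 (SE 0.10).

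Between KO obese and KO lean mice 7 of 31 rose and 4 fell, where 24.1% of all genes were called. The median of the 31 was 0.14. Ido2 rose by 1.10 (SE 0.17, adjusted p = 0.0027), Aox1 by 1.10 (SE 0.19) and Aox3 by 0.77 (SE 0.17), and Parp1, a poly-ADP-ribose polymerase, rose by 0.39 (SE 0.11). Acmsd, which diverts the tryptophan route away from NAD, fell by 1.21 (SE 0.26, adjusted p = 0.0087), from 793 to 1017 normalized counts in KO lean to 181 to 893 in KO obese mice. Cd38, an NAD glycohydrolase, fell by 0.58 (SE 0.15). In KO lean relative to WT lean mice Cd38 rose by 0.67 (SE 0.13, adjusted p = 0.0302), with all 7 KO lean mice at 520.2 or more and all WT lean mice at 505 or less. The share of all genes with lean groups so separated is not given here. Nt5e (0.58, SE 0.16) and Sirt7, a nuclear sirtuin (0.33, SE 0.12), also rose there, and Parp1 fell by 0.28 (SE 0.10). Thus 3 of 29 rose and 1 fell, where 16.3% of all genes were called. With the block none of the 29 was called there, the lowest adjusted p by limma being 0.138, that of Cd38, and Parp1 was no longer called between KO obese and KO lean mice. Cd38 moved in the same directions as the Kupffer markers in these comparisons, and their part in its values was not tested. In the other 3 comparisons, KO obese vs WT obese and both with RvE1, limma, edgeR and DESeq2 called 0 of these genes, with 1 and 7 at an unadjusted p under 0.05 by limma for KO obese vs WT obese and for RvE1 in KO mice.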

How the data were processed

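Liver RNA of 42 mice was measured by TruSeq stranded total RNA sequencing, 1 library per mouse. The authors aligned reads to mm10 with Bowtie2, counted pairs per gene with featureCounts, and normalized the 14 libraries of each comparison with DESeq2 (versions, gene models and the strand option: not given in the sources used here). The deposited values are therefore a signal of reads divided by a size factor. Each table also holds the authors' mean, fold change, its error and p-values, which were not used. Whole reads were recovered from the deposited values, 100% of which came out whole within 0.1 reads.

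Groups came from the sample labels. Each comparison was fitted to its own 14 libraries with limma (3.58.1, R 4.3.3, lmFit and eBayes with trend, two-sided) on log2(normalized count + 1), for genes with a mean of at least 5, with Benjamini-Hochberg adjustment over all genes and calls at an adjusted p under 0.1 without a fold threshold. The diet by genotype difference was formed from differences within tables. Alternatives were pseudocounts of 0.5 and 4, no filter, TMM, equal read totals, loess correction for length and GC content (span 0.3, GENCODE M21, 92.9% of names matched), identifier number as a random block, edgeR (4.0.16) and DESeq2 (1.42.0) on recovered reads, an adjusted p under 0.05, a fold above 1.5, and leaving out each mouse. The procedure was tested on simulated data. The members and lists were chosen with earlier results of these data known. Named genes were the 10 members, up to 6 other NAD genes per comparison by smallest adjusted p, Cmklr1, clock genes where Nampt was called, and the 5 genes most like Nmrk1, of which 1 is not reported here. Clec4g and Kdr were named after their values were seen. No 2 libraries of a group were alike within counting noise. Whether mice shared a litter or cage is not given, and p-values measure the spread between these mice.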

Additional observations from a re-analysis of the deposited data

Results flagged for a closer look

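In 4 of 60 combinations of gene and group, 1 mouse lay far from the other 6 by the size of its gap to the nearest of them, relative to the range of the group. Chance gives about 1 in 20. The KO obese+RvE1 mouse 23-2L had 3886.92 normalized counts of Nampt, against 1612 to 2292 in the others, and 628.517 of Sirt1, against 379 to 478. The KO lean mouse 20L had 399.505 of Nmnat1, against 208 to 282, and 6261.42 of Qprt, against 3914 to 4629.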

How the results depend on the processing

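Over 711 values (79 results for single members under 9 other settings), 695 stayed the same (674 also in direction), 10 passed where the reported value did not and 6 no longer passed. For tested results, the same meant the same side of the threshold. For values given without a test, it meant a log2 fold change that moved by less than a set multiple of its SE. The sign turned in the remaining 21 of the 695, none of them called, and none larger than 0.062 as reported. Leaving aside Nmrk1, which carries no test there, the count of members called rose from 1 of 9 to 2 between WT obese and WT lean mice at equal read totals. Between KO lean and WT lean mice it went from 2 to 0 at an adjusted p under 0.05, to 0 with a random block for the identifier number and to 4 with DESeq2, and for diet by genotype from 0 to 1 with DESeq2. Leaving out 1 mouse gave 1 to 2 members called between WT obese and WT lean, 2 to 4 between KO obese and KO lean, 0 to 4 between KO lean and WT lean, 0 to 2 for diet by genotype and 0 to 0 for KO obese vs WT obese and KO obese+RvE1 vs KO obese, and -0.60 to -0.50 for Nmrk1 with RvE1 in WT mice. With the block, calls among all genes fell from 878 to 279, from 3422 to 1057 and from 2123 to 3 in the comparisons WT obese vs WT lean, KO obese vs KO lean and KO lean vs WT lean. Among the 31 other NAD genes tested between KO obese and KO lean mice, the 11 calls became 5 with the block, and the 4 of 29 between KO lean and WT lean mice became 0. Diet by genotype had 1 gene called by limma, 39 by edgeR and 930 by DESeq2. The causes were not tested. No paired analysis was possible because the labels give no replicate numbers and the groups compared share at most 1 identifier number. Depth did not limit the members, each of which had over 50 normalized counts in every mouse.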

Other observations

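Among the genes whose levels followed Nmrk1 most closely, by the mean over 6 tables of Pearson's r across the 14 mice of a table and among 10464 genes with a mean of at least 50, were Per2 (mean r 0.61), Dmd (0.58), Slc25a21 (0.57) and Zranb3 (0.57). Per2 belongs to the circadian clock, Dmd encodes dystrophin, Slc25a21 a mitochondrial carrier of oxodicarboxylates and Zranb3 a DNA translocase. For Per2 the r was 0.88 between KO obese and WT obese mice and 0.033 between KO lean and WT lean mice. Nampt ranked 50 with a mean r of 0.47, and Ido2 ranked 27. The tables share mice, and r across 2 groups also holds the difference between them, so these are descriptions.

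Within groups, the members of 45 pairs that varied together most were Nampt with Nadk (mean r 0.78 over the 6 tables, each across 14 mice after removing group means) and Nnmt with Sirt3 (0.72), followed by Qprt with Nadk (0.59).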
